A study of Homo sapiens with 12 samples.

Results

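The genes described here encode the enzymes that place and remove acetyl groups on histone lysines and a pair of proteins that bind acetylated lysine. They were listed by name, with earlier results of these data known. The list holds 33 genes: 13 acetyltransferases (writers), 18 deacetylases (erasers) and 2 bromodomain proteins of the BET family (readers). Each symbol matched 1 Ensembl identifier among the 70116 in the deposited count table. Of the 33 genes, 30 had enough counts to be tested. HAT1, KAT6B and SIRT2 did not, and their counts are given after the readers.

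The libraries were polyadenylated RNA from MiaPaCa-2 cells, a line established from a human pancreatic carcinoma, transfected with a control small interfering RNA (siControl) or with siRNA against SLC25A1 (siSLC25A1), ACLY (siACLY) or ACO1 (siACO1). Each of the 4 groups had 3 libraries. SLC25A1 is the mitochondrial citrate carrier, ACLY cleaves cytosolic citrate to acetyl-CoA and oxaloacetate, and ACO1 is the cytosolic aconitase, which also acts as an iron-regulatory RNA-binding protein. The number and sequence of the siRNAs, the time after transfection and the nutrient condition are not given in the labels. The labels also do not say whether the replicates were separate cultures, so the p-values measure the spread between these libraries, which may be technical.

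Lysine acetylation of histone tails weakens their contact with DNA and creates docking sites for bromodomains, and it is associated with open chromatin and active transcription. Writers take the acetyl group from acetyl-CoA, for which ACLY is a main nuclear and cytosolic source. The erasers fall into zinc-dependent histone deacetylases (HDACs) and NAD-dependent sirtuins, several of which also act on proteins other than histones. The files hold transcript counts, so they bear on the amounts of mRNA for these enzymes, not on protein, enzyme activity or acetylation.

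Library totals ran from 24159424 to 43792811 counts, and levels are given as CPM, counts relative to the size of the library, which was adjusted by edgeR's trimmed mean of M values (TMM). The targeted transcripts stood at 8.78% (SLC25A1), 7.25% (ACLY) and 3.75% (ACO1) of their siControl mean in the matching knockdown. The epithelial keratin KRT8 averaged 2278 CPM and the mesenchymal marker VIM 3561 CPM in siControl. EPCAM and CDH1, which define epithelial cells, had 5 and 7 counts in the 12 libraries together. The acinar, endocrine and leukocyte markers PRSS1, CPA1, CELA3A, INS, GCG, PTPRC and CD3E were listed at 0. Low counts around SIRT2, HAT1 and BRD2 are given below, and their cause was not tested. A value at or near 0 is therefore not read here as a lack of transcript. In these bulk libraries a lower level per cell and fewer cells that express a gene cannot be told apart.

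Across the 16197 genes tested, edgeR's quasi-likelihood test called 19.6% in siSLC25A1, 36.7% in siACLY and 37.1% in siACO1 against siControl, at a Benjamini-Hochberg adjusted p under 0.05. Of the 30 tested members, 7 (23.3%) were called in siSLC25A1, 15 (50%) in siACLY and 14 (46.7%) in siACO1. All 7 calls in siSLC25A1 were lower, beside 9.27% of all genes called lower and 10.3% called higher. The count was 3 without siControl replicate 3 or siSLC25A1 replicate 3, and 4 without siSLC25A1 replicate 1. KAT6A was called higher in siSLC25A1 with only the groups compared and without siACO1 replicate 3. In siACLY, 7 members were higher and 8 lower, beside 18.4% and 18.3% of all genes. In siACO1, 5 were higher and 9 lower, beside 17.8% and 19.3%. The changes were small: the members' median absolute log2 fold change was 0.107, 0.181 and 0.128, beside 0.150, 0.204 and 0.209 over all genes. No member moved by 2-fold against siControl. With the sign kept, the members' median was -0.066, -0.035 and -0.034, beside -0.004, 0.008 and 0.006 over all genes. The 3 knockdowns share the siControl libraries, so their values against siControl are not independent of each other.

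The libraries of the groups did not overlap for 13 members in siSLC25A1, 18 in siACLY and 16 in siACO1, beside 37.1%, 50.5% and 46.3% of all genes tested. At least 1 knockdown called 21 of the 30 members, beside 59% of all genes. Calls in all 3 knockdowns were made for 4 members (BRD3, HDAC1, HDAC9 and SIRT6), beside 6.87% of all genes. Among these, BRD3 and SIRT6 were lower in every knockdown, while HDAC1 and HDAC9 were lower in some and higher in others.

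**Figure D1:**
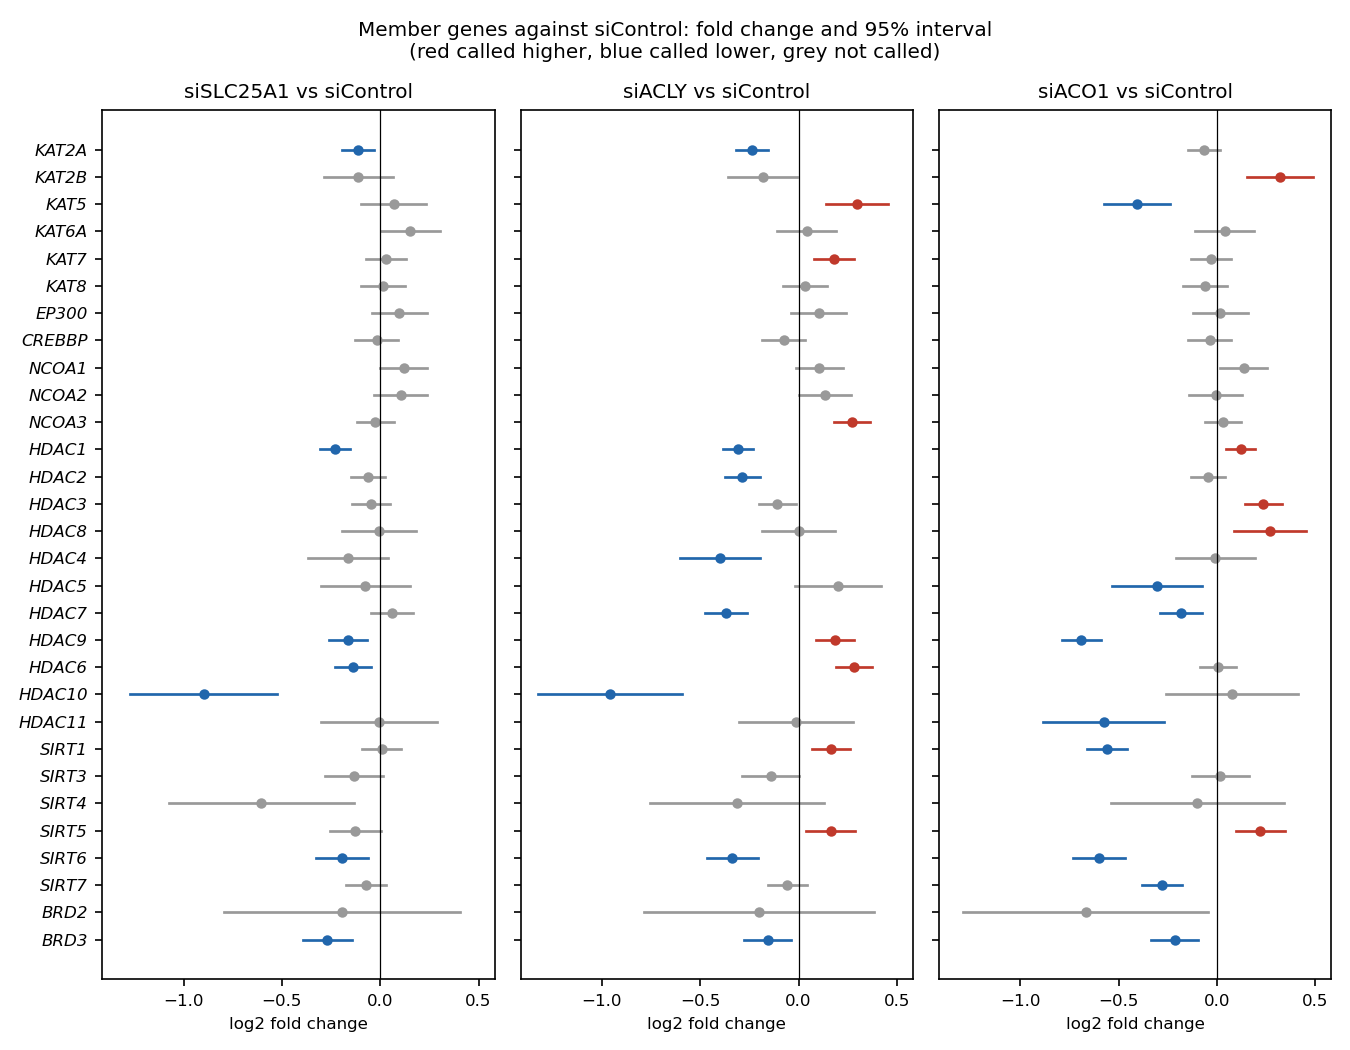
Log2 fold change (x axis) of the 30 tested members (rows, writers at the top, then HDACs, sirtuins and readers) in each knockdown against siControl, with the 95% interval of the edgeR fit as a line. Red marks a call higher, blue a call lower and grey no call: siSLC25A1 shows 7 blue members and no red one, while siACLY and siACO1 show both.

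The 250 bases before the annotated start are shown for 3 members whose transcripts carried a large or repeated part of the pattern below: SIRT1, lower in siACO1, SIRT6, lower in every knockdown, and HDAC1, the member with the highest level per length. They are RefSeq sequences on GRCh38.p14, at chr10:67884406-67884655 (plus strand) for SIRT1, chr19:4182564-4182813 (minus strand) for SIRT6 and chr1:32291833-32292082 (plus strand) for HDAC1. Each is written 5′ to 3′ in the direction of the gene. SIRT6 had 2 RefSeq windows, and the one before the most upstream start is shown. In GENCODE the SIRT6 gene begins farther upstream, at position 4182604, so the end of its window lies inside that gene. Capitals mark every match, on either strand, to the motifs GGGCGG (the GC box bound by SP factors), CCGGAAG (an ETS site), TGACGTCA (a CRE), CACGTG (an E-box) and TGANTCA (an AP-1 site), and neighbouring GGGCGG matches can overlap.
SIRT1: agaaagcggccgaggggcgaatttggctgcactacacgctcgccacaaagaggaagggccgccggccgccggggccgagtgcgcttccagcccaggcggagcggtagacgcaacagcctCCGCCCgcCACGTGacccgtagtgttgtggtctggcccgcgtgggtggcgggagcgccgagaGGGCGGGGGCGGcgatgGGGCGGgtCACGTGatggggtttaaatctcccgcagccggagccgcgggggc
SIRT6: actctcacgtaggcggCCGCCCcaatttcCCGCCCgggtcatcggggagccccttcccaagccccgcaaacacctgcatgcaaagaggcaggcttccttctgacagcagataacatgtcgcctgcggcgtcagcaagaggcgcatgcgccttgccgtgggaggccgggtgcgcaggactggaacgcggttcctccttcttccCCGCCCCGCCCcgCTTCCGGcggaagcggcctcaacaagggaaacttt
HDAC1: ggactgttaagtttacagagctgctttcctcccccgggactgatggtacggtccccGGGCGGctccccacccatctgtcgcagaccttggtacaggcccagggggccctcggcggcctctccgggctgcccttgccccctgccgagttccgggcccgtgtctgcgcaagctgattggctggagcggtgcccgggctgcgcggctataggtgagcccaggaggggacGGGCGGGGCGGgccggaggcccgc
SIRT1 held 4 GGGCGG matches and 2 CACGTG matches. SIRT6 held 4 GGGCGG matches and 1 CCGGAAG match, and HDAC1 held 3 GGGCGG matches. RefSeq windows were found for 28 of the 33 members, counting all their start sites. GGGCGG occurred in at least 1 window of 17 of these members and in 42.6% of all 35116 windows. CCGGAAG occurred in 7 members (8.52% of all windows), CACGTG in 3 (6.34%), TGANTCA in 2 (6.57%) and TGACGTCA in 1 (1.65%). A member can have several windows, so the member counts and the window shares are not on one scale. A match is a run of letters and says nothing about whether a factor binds there.

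Levels per kilobase of the longest principal transcript were compared between members in siControl. HDAC1 was the highest, with 180.9 CPM per kilobase, followed by the acetyltransferase KAT2A with 48.2 and HDAC3 with 46.4. The sirtuins SIRT7 and SIRT6 followed with 33.5 and 28.3 CPM per kilobase. Among the other writers, KAT8 stood at 23.3, EP300 at 11.5 and CREBBP at 8.62 CPM per kilobase. Of the tested members other than BRD2, the lowest were SIRT4 with 1.56 and HDAC10 with 1.27 CPM per kilobase, both from low counts.

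Among the 11 writers tested, 1 was called in siSLC25A1 (9.09%), 4 in siACLY (36.4%) and 2 in siACO1 (18.2%), beside 19.6%, 36.7% and 37.1% of all genes. EP300 and CREBBP, the paralogous coactivators p300 and CBP that acetylate histone H3 at enhancers, were called in none of the 6 comparisons between groups. EP300 stood at 109, 106 and 116 CPM in siControl, at 119, 114 and 122 in siACLY and at 121, 119 and 96.0 in siACO1. Its siControl and siACLY libraries overlapped, and the third siACO1 library was below all the others. EP300 was called higher in siACLY with only the groups compared and without siACO1 replicate 3 (adjusted p down to 0.0302). The 95% intervals of the log2 fold change of EP300 were -0.04 to 0.24 in siSLC25A1, -0.04 to 0.24 in siACLY and -0.12 to 0.16 in siACO1. For CREBBP they were -0.13 to 0.09, -0.18 to 0.03 and -0.14 to 0.07.

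KAT2A and KAT2B are the GCN5 and PCAF acetyltransferases, which share a place in SAGA-type complexes. KAT2A was counted at 153, 147 and 149 CPM in siControl and at 128, 128 and 126 CPM in siACLY, with no overlap. Its log2 fold change in siACLY was -0.24 (SE 0.04, adjusted p = 2.386e-05). In siSLC25A1 KAT2A averaged 138 CPM and passed the test narrowly (log2 fold change -0.11, adjusted p = 0.0425). That call was lost in 10 of the 19 alternative settings, with adjusted p up to 0.173, among them the removal of any 1 siControl, siSLC25A1 or siACLY library.

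KAT2B was called higher, in another knockdown. It was counted at 12.6, 15.3 and 14.4 CPM in siControl and at 16.5, 17.6 and 18.7 CPM in siACO1. All siACO1 libraries were above all siControl libraries, and the log2 fold change was 0.32 (SE 0.08, adjusted p = 0.00275). In siACLY the log2 fold change of KAT2B was -0.18 (adjusted p = 0.0952), beside -0.24 for KAT2A. It was called lower there without siControl replicate 1 (adjusted p = 0.0289). In siSLC25A1 it was -0.11 (adjusted p = 0.414), beside -0.11 for KAT2A. The direct comparison of siACO1 with siACLY put KAT2B 0.50 higher on the log2 scale in siACO1 (adjusted p = 1.558e-05) and KAT2A 0.17 higher (adjusted p = 8.174e-04).

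The MYST family includes KAT5 (TIP60), the catalytic subunit of the NuA4/TIP60 complex, KAT7 (HBO1), KAT8 (MOF), which acetylates histone H4 at lysine 16, and KAT6A (MOZ). KAT5 had opposite calls in siACLY and siACO1. It was counted at 14.1, 14.3 and 14.1 CPM in siControl, at 17.1, 18.0 and 17.2 CPM in siACLY and at 11.8, 9.79 and 10.6 CPM in siACO1. The siACLY libraries were all above siControl and the siACO1 libraries all below. The log2 fold changes were 0.30 (SE 0.08, adjusted p = 0.00287) and -0.41 (SE 0.08, adjusted p = 2.060e-04), and siACO1 stood 0.70 below siACLY on the log2 scale, a log2 fold change of -0.70 (adjusted p = 3.022e-08).

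KAT5 values carry an uncertainty of counting. In the GENCODE annotation 38.6% of its exon bases on chromosome 11 are overlapped by RNASEH2C, which lies on the opposite strand, and whether strand was used in the counting is not given in the sources used here. RNASEH2C itself averaged 46.0 CPM in siControl, 49.8 in siACLY and 58.7 in siACO1. In siACO1, RNASEH2C was higher (log2 fold change 0.35, adjusted p = 1.469e-05) where KAT5 was lower.

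KAT7 was called in siACLY, with 63.8, 63.0 and 66.2 CPM in siControl and 73.6, 72.4 and 72.2 CPM in siACLY (log2 fold change 0.18, SE 0.05, adjusted p = 0.00461). KAT6A and KAT8 were called in none of the 6 comparisons of the main fit. KAT6A did not overlap in siSLC25A1, with 64.6, 67.2 and 70.05 CPM in siControl and 74.5, 76.1 and 73.7 CPM in siSLC25A1. Its log2 fold change there was 0.15 (adjusted p = 0.154). It was called higher there with only the groups compared and without siACO1 replicate 3 (adjusted p down to 0.00808). Among the p160 nuclear receptor coactivators NCOA1, NCOA2 and NCOA3, NCOA3 was called in siACLY. It was counted at 64.6, 67.8 and 68.3 CPM in siControl and at 80.2, 81.3 and 80.9 CPM in siACLY (log2 fold change 0.27, SE 0.05, adjusted p = 1.724e-05). NCOA1 and NCOA2 had no call in any of the 6 comparisons. All knockdown libraries of NCOA1 (33.29 to 37.35 CPM) were nevertheless above all its siControl libraries (32.13 to 32.96 CPM). For NCOA1 the values against siControl were 0.12, 0.11 and 0.14 on the log2 scale, with adjusted p of 0.163, 0.163 and 0.0672.

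The third siACO1 library stood apart from the other siACO1 libraries for several of these long transcripts. KAT6A was counted there at 58.4 CPM, beside 73.7 and 75.5 in the other siACO1 libraries, and CREBBP at 81.6 CPM, beside 96.2 and 94.8. The log2 ratio of the third library to the mean of the other siACO1 libraries was lowest for HDAC4 (-0.37), KAT6A (-0.35) and EP300 (-0.32), whose principal transcripts are 8976, 9192 and 9587 bases long. It was highest for SIRT3 (0.24) and SIRT4 (0.22), at 2543 and 1217 bases. The order did not follow length throughout, since KAT7 (9644 bases) stood at 0.09 and HDAC2 (9874 bases) at 0.12. Without that library EP300 (log2 fold change 0.12, adjusted p = 0.0339), KAT6A (0.15, adjusted p = 0.0158) and NCOA1 (0.18, adjusted p = 0.0134) were called higher in siACO1. NCOA1 was also called there without scaling factors and with at least 10 counts required in every library. Leaving that library out also brought calls higher for KAT6A in siSLC25A1 and EP300 in siACLY, comparisons that do not include siACO1. What sets the library apart was not tested.

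**Figure D2:**
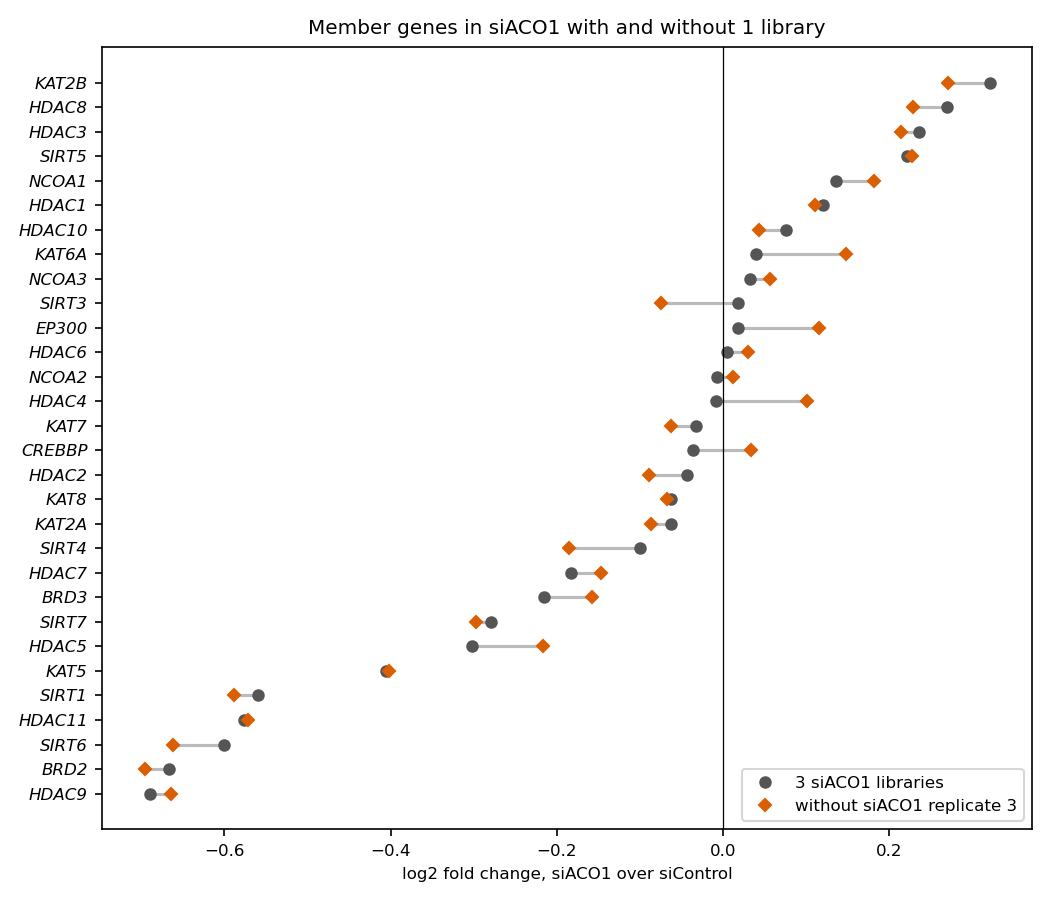
Log2 fold change of the 30 tested members in siACO1 against siControl (x axis), from all 3 siACO1 libraries (grey circles) and without siACO1 replicate 3 (orange diamonds). HDAC4, KAT6A, EP300 and CREBBP shift to the right without it, SIRT3 and SIRT4 shift to the left, and HDAC9, SIRT6, HDAC11 and SIRT1 stay far below 0.

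Of the 17 erasers among the 30 tested members, 5 were called in siSLC25A1 (29.4%), 10 in siACLY (58.8%) and 11 in siACO1 (64.7%), beside 19.6%, 36.7% and 37.1% of all genes. The class I enzymes HDAC1, HDAC2, HDAC3 and HDAC8 are mostly nuclear, and HDAC1 and HDAC2 are the catalytic subunits of the NuRD, SIN3 and CoREST corepressor complexes. HDAC1 was counted at 390, 381 and 381 CPM in siControl, at 333, 319 and 330 in siSLC25A1, at 316, 312 and 304 in siACLY and at 413, 419 and 421 in siACO1. None of the knockdown libraries overlapped with siControl: those of siSLC25A1 and siACLY lay below it and those of siACO1 above it.

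The log2 fold change of HDAC1 was -0.23 in siSLC25A1 (SE 0.04, adjusted p = 2.932e-05), -0.31 in siACLY (SE 0.04, adjusted p = 1.401e-07) and 0.12 in siACO1 (SE 0.04, adjusted p = 0.0107). The rise in siACO1 was lost without siControl replicate 3 (adjusted p = 0.0566) and with no filter on low counts. HDAC1 did not differ by the test between siACLY and siSLC25A1 (log2 fold change -0.07, 95% interval -0.15 to 0.00, adjusted p = 0.129), although their libraries did not overlap.

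HDAC2, the close paralog of HDAC1, was counted at 206, 206 and 193 CPM in siControl and at 166, 163 and 167 CPM in siACLY, with no overlap (log2 fold change -0.29, SE 0.04, adjusted p = 3.941e-06). In the other knockdowns it was not called. HDAC3 was counted at 90.3, 90.5 and 91.8 CPM in siControl and at 109, 103 and 110 CPM in siACO1 (log2 fold change 0.24, SE 0.05, adjusted p = 1.511e-04). HDAC8, which deacetylates the cohesin subunit SMC3, averaged 11.5 CPM in siControl and 13.8 CPM in siACO1 (log2 fold change 0.27, adjusted p = 0.0184). The HDAC8 call was lost without siControl replicate 1 or 3 and without siACO1 replicate 2 or 3, with adjusted p up to 0.0658.

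**Figure D3:**
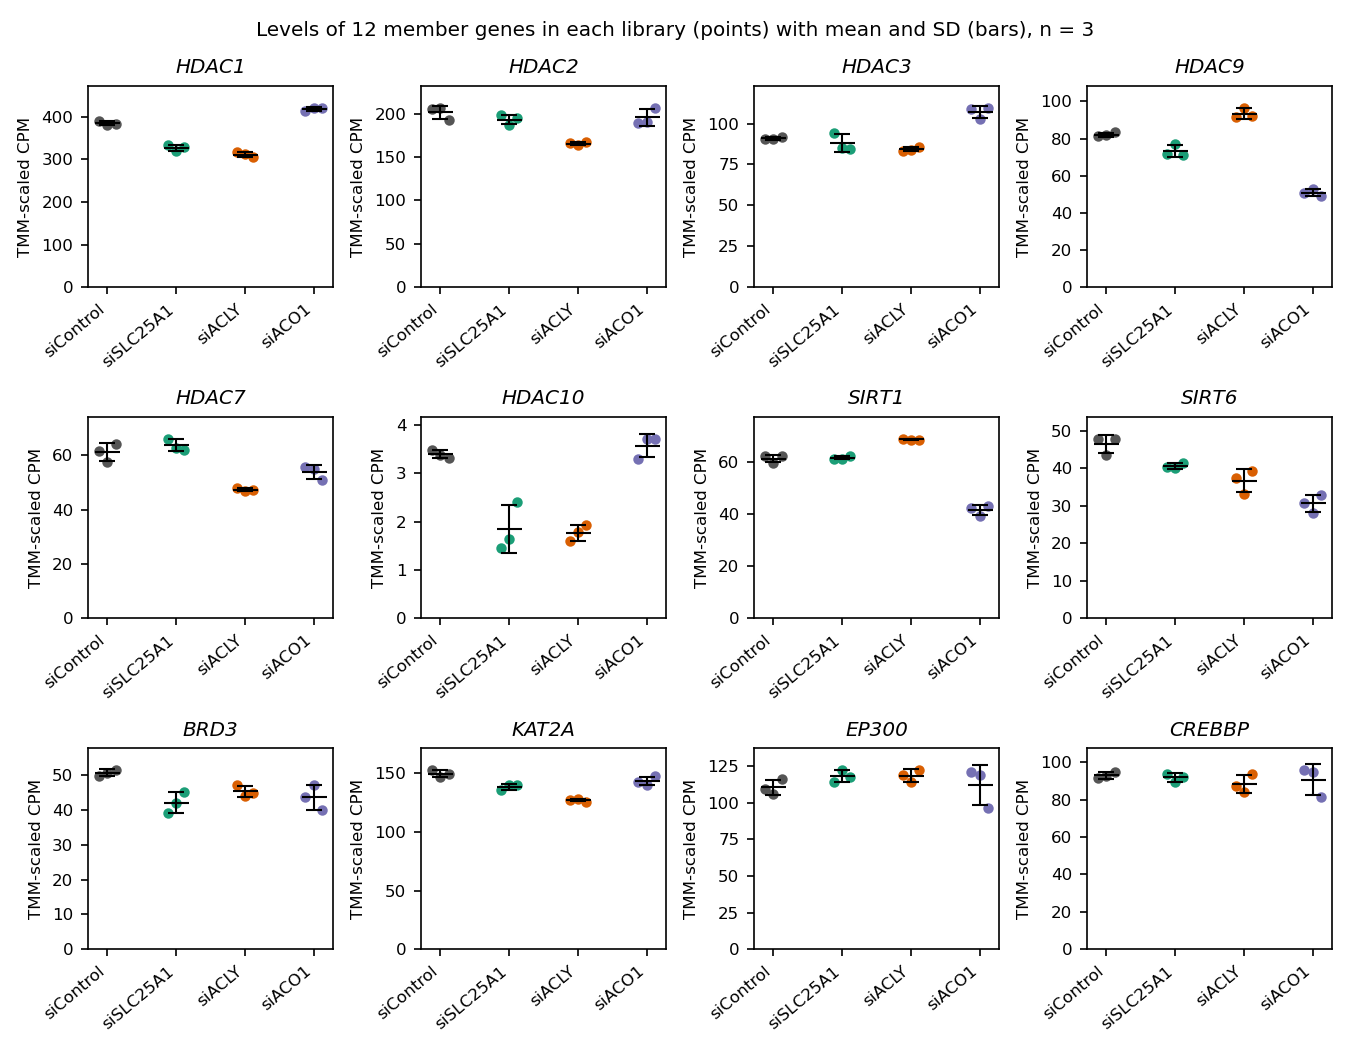
TMM-scaled CPM (y axis, from 0) of 12 members in each library by group, with points for libraries and bars for the mean and SD of 3 libraries. HDAC1 lies at 304 to 333 CPM in siSLC25A1 and siACLY and at 413 to 421 CPM in siACO1, SIRT1 and HDAC9 are lowest in siACO1, and the siControl and siACLY libraries of EP300 and CREBBP overlap.

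The class IIa enzymes HDAC4, HDAC5, HDAC7 and HDAC9 shuttle between nucleus and cytoplasm, bind MEF2 factors and have weak catalytic activity of their own. HDAC9 had the largest change of any member in siACO1. It was counted at 81.1, 81.9 and 83.3 CPM in siControl, at 71.7, 77.0 and 71.0 in siSLC25A1, at 91.6, 96.7 and 92.0 in siACLY and at 50.8, 53.0 and 49.0 in siACO1. The 4 groups formed 4 separate ranges, with siACO1 the lowest and siACLY the highest. Against siControl, the log2 fold change was -0.69 in siACO1 (SE 0.05, adjusted p = 2.674e-12), -0.17 in siSLC25A1 (SE 0.05, adjusted p = 0.0121) and 0.19 in siACLY (SE 0.05, adjusted p = 0.00206). The call in siSLC25A1 was lost without siControl replicate 3 or siSLC25A1 replicate 3 (adjusted p up to 0.0671).

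HDAC4 was counted at 43.0, 39.1 and 40.7 CPM in siControl and at 30.8, 27.7 and 34.5 CPM in siACLY, with no overlap (log2 fold change -0.40, SE 0.10, adjusted p = 0.00354). HDAC7 was counted at 61.7, 57.5 and 64.2 CPM in siControl and at 48.0, 46.9 and 47.2 CPM in siACLY (log2 fold change -0.37, SE 0.05, adjusted p = 1.870e-06). The siACLY libraries of HDAC7 were thus below all siControl libraries, and it was also lower in siACO1 (log2 fold change -0.18, adjusted p = 0.00595). HDAC5 averaged 10.7 CPM in siControl and 8.67 CPM in siACO1 (log2 fold change -0.30, adjusted p = 0.0333). That call was lost without siControl replicate 1, siControl replicate 3 or siACO1 replicate 3 and without scaling factors, with adjusted p up to 0.146. Within siACLY, the class IIa genes therefore split into HDAC4 and HDAC7 lower, HDAC9 higher and HDAC5 not called.

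The class IIb enzymes are HDAC6, a cytoplasmic tubulin deacetylase, and HDAC10, a polyamine deacetylase. HDAC6 was counted at 99.9, 99.9 and 108 CPM in siControl, at 92.2, 95.9 and 91.3 in siSLC25A1 and at 124, 128 and 122 in siACLY. Its siSLC25A1 libraries lay below siControl and its siACLY libraries above. The log2 fold change was -0.14 in siSLC25A1 (SE 0.05, adjusted p = 0.0289) and 0.28 in siACLY (SE 0.04, adjusted p = 1.041e-05). The call in siSLC25A1 was lost without siControl replicate 3, siSLC25A1 replicate 1 or siSLC25A1 replicate 3 (adjusted p up to 0.199).

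HDAC10 had the largest log2 fold change of a member in siSLC25A1 and in siACLY, at a low level. It was counted at 3.49, 3.38 and 3.32 CPM in siControl, at 1.47, 1.65 and 2.40 in siSLC25A1, at 1.60, 1.78 and 1.93 in siACLY and at 3.30, 3.71 and 3.72 in siACO1. The siSLC25A1 and siACLY libraries lay below siControl, while those of siACO1 overlapped with it. The log2 fold change was -0.90 in siSLC25A1 (SE 0.18, adjusted p = 5.694e-04), -0.96 in siACLY (SE 0.18, adjusted p = 8.928e-05) and 0.08 in siACO1 (95% interval -0.26 to 0.41).

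MAPK12, a p38-type kinase gene on the same strand of chromosome 22, overlaps 55.8% of the exon bases of HDAC10 in the annotation and moved the same way. MAPK12 averaged 73.9 CPM in siControl, 53.6 in siSLC25A1, 47.5 in siACLY and 77.2 in siACO1. Its log2 fold change was -0.46 in siSLC25A1 (adjusted p = 5.714e-08), -0.63 in siACLY (adjusted p = 4.484e-11) and 0.06 in siACO1. How reads in the shared exons were assigned is not given in the sources used here, and the part of MAPK12 in the HDAC10 values was not tested.

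HDAC11, the class IV enzyme, which removes long fatty acyl groups, was counted at 6.95, 8.49 and 8.83 CPM in siControl and at 5.96, 4.97 and 5.36 CPM in siACO1. The groups did not overlap, and the log2 fold change was -0.58 (SE 0.15, adjusted p = 0.00331). In siSLC25A1 and siACLY its log2 fold change was -0.01 in both, with 95% intervals of -0.30 to 0.29 and -0.30 to 0.28.

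The sirtuins are NAD-dependent: SIRT1, SIRT6 and SIRT7 are nuclear, SIRT3, SIRT4 and SIRT5 mitochondrial, and SIRT2 largely cytoplasmic. The 3 nuclear sirtuins were all lower in siACO1. SIRT1 was counted at 62.0, 59.5 and 62.0 CPM in siControl, at 61.1, 61.2 and 62.1 in siSLC25A1, at 68.8, 68.4 and 68.4 in siACLY and at 42.4, 39.3 and 42.9 in siACO1. Its siACO1 libraries were below and its siACLY libraries above all siControl libraries, while siSLC25A1 overlapped with siControl. In siACO1 the log2 fold change was -0.56 (SE 0.05, adjusted p = 2.701e-10), and it was 0.16 in siACLY (SE 0.05, adjusted p = 0.00656) and 0.01 in siSLC25A1 (95% interval -0.09 to 0.10).

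SIRT6, which deacetylates histone H3 at lysine 9 and lysine 56, was lower in every knockdown. It was counted at 48.0, 43.6 and 47.8 CPM in siControl, at 40.2, 40 and 41.5 in siSLC25A1, at 37.4, 33.3 and 39.4 in siACLY and at 30.8, 28.1 and 32.9 in siACO1. No knockdown library reached the lowest siControl library, and the siACO1 libraries were below all others. The log2 fold change was -0.19 in siSLC25A1 (SE 0.06, adjusted p = 0.0298), -0.34 in siACLY (SE 0.06, adjusted p = 9.703e-05) and -0.60 in siACO1 (SE 0.07, adjusted p = 1.469e-08). The call in siSLC25A1 was lost without siControl replicate 1 or 3 and without any 1 of the siSLC25A1 libraries (adjusted p up to 0.131). Between siACO1 and siACLY, SIRT6 differed by -0.26 on the log2 scale (adjusted p = 0.00179), and between siACLY and siSLC25A1 by -0.14 (adjusted p = 0.0899).

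SIRT7, a nucleolar deacetylase of histone H3 at lysine 18, was counted at 59.9, 56.1 and 59.4 CPM in siControl and at 49.2, 46.3 and 49.0 CPM in siACO1 (log2 fold change -0.28, SE 0.05, adjusted p = 4.691e-05). Of the mitochondrial sirtuins, SIRT5, which removes succinyl and malonyl groups, was counted at 26.5, 27.7 and 26.4 CPM in siControl and at 31.8, 31.2 and 30.9 CPM in siACO1. Its libraries did not overlap (log2 fold change 0.22, SE 0.06, adjusted p = 0.00506). It was also called higher in siACLY (log2 fold change 0.16, adjusted p = 0.0381), a call lost in 8 of the 19 alternative settings, DESeq2 among them. SIRT3 and SIRT4 were called in none of the 6 comparisons. SIRT4 was low, with 1.90 CPM in siControl and 1.25 CPM in siSLC25A1, and its log2 fold change there was -0.60, with a wide 95% interval of -1.07 to -0.13 and an adjusted p of 0.0638.

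The readers BRD2 and BRD3 are BET proteins whose paired bromodomains bind acetylated histone H4. BRD3 was counted at 49.8, 50.8 and 51.7 CPM in siControl, at 39.3, 42.1 and 45.2 in siSLC25A1, at 47.2, 44.03 and 45.1 in siACLY and at 43.7, 47.3 and 40.1 in siACO1. All 9 knockdown libraries were below all siControl libraries. The log2 fold change was -0.27 in siSLC25A1 (SE 0.06, adjusted p = 0.00158), -0.16 in siACLY (SE 0.06, adjusted p = 0.0364) and -0.22 in siACO1 (SE 0.06, adjusted p = 0.00485). The call in siACLY was lost in 7 of the 19 alternative settings, among them the removal of any 1 siControl library (adjusted p up to 0.16). The knockdowns did not differ from each other in BRD3 by the test.

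BRD2 was counted near 1 CPM, with 303 counts in the 12 libraries together and a mean of 0.977 CPM in siControl. Its log2 fold change in siACO1 was -0.67, with a 95% interval of -1.29 to -0.05 and an adjusted p of 0.0862. KAT6B (a MYST acetyltransferase) had 1 count in the 12 libraries, SIRT2 was listed at 0 in every library, and HAT1, the acetyltransferase of newly made histone H4, had 30 counts. No fold change is given for these 3.

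Genes beside these members were looked at after the low counts had been seen. The nearest protein-coding genes around SIRT2 on chromosome 19 were also listed at or near 0: ECH1, RINL, NFKBIB and SARS2 had 0 counts, and HNRNPL, which encodes an abundant RNA-binding protein of the spliceosome, had 7. Beside HAT1 on chromosome 2, DYNC1I2 and METAP1D had 0 counts and SLC25A12, a mitochondrial aspartate-glutamate carrier gene, had 34. CYBRD1 and ITGA6, a little farther away, had 65323 and 15122. Around BRD2, in the major histocompatibility region of chromosome 6, TAP1 had 7 counts and HLA-DMA, HLA-DMB and HLA-DOA had 0. KAT6B had ADK, with 29291 counts, on one side, and on the other DUPD1 with 0, DUSP13 with 12 and then SAMD8 with 18272. The cause of the low counts of HAT1, SIRT2, KAT6B and BRD2 was not tested, and they are not read here as a lack of transcript.

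**Figure D4:**
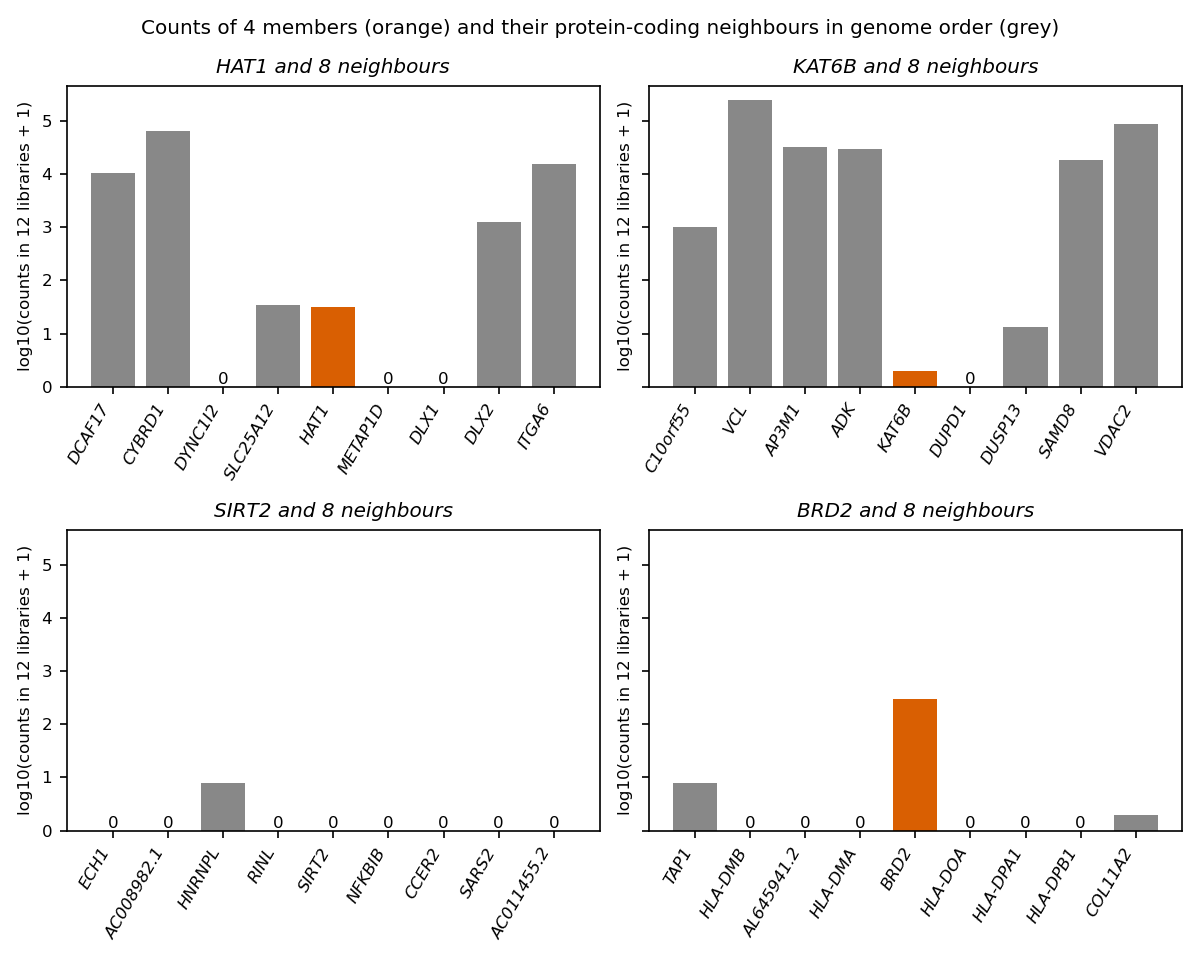
Log10 of the counts summed over 12 libraries plus 1 (y axis) for HAT1, KAT6B, SIRT2 and BRD2 (orange) and the 4 protein-coding neighbours on each side in genome order (grey), with 0 written where no read was counted. Every neighbour of SIRT2 and BRD2 shown had 7 counts or fewer, while KAT6B has 4 neighbours with many counts on one side and, on the other, DUPD1 (0) and DUSP13 (12) before genes with many counts.

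The knockdowns were then compared with each other. Between siACLY and siSLC25A1, 10 of 30 members differed, beside 33.8% of all genes. Of these, 7 were higher in siACLY (16.3% of all genes) and 3 lower (17.5%). Between siACO1 and siSLC25A1, 14 differed, beside 42.1% of all genes, with 7 higher in siACO1 (20.3%) and 7 lower (21.8%). Between siACO1 and siACLY, 19 of 30 (63.3%) differed, beside 42.1% of all genes, with 9 higher in siACO1 (20.7%) and 10 lower (21.4%).

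All 11 zinc-dependent HDACs differed between siACO1 and siACLY, beside 42.1% of all genes. The 4 class I genes were higher in siACO1, by 0.43 (HDAC1), 0.24 (HDAC2), 0.34 (HDAC3) and 0.27 (HDAC8) on the log2 scale. HDAC8 had the highest adjusted p of these (0.0179), and its call was lost without siACLY replicate 1, siACLY replicate 2 or siACO1 replicate 3 (adjusted p up to 0.0574). HDAC4 (0.39), HDAC7 (0.18) and HDAC10 (1.03) were also higher in siACO1. HDAC9 (-0.88), HDAC11 (-0.56), HDAC5 (-0.50) and HDAC6 (-0.28) were lower. HDAC10, with its overlapping neighbour, was the single member past 2-fold in any comparison.

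The sirtuins SIRT1 (-0.72), SIRT6 (-0.26) and SIRT7 (-0.22) were all lower in siACO1 than in siACLY on the log2 scale. Of the writers, KAT2A and KAT2B were higher in siACO1, while KAT5, NCOA3 (-0.24) and KAT7 (-0.21) were lower. The members with no call in any of the 6 comparisons were EP300, CREBBP, KAT6A, KAT8, NCOA1, NCOA2, SIRT3, SIRT4 and BRD2. For the 7 of these other than SIRT4 and BRD2, the 95% intervals of all 6 comparisons lay between -0.29 and 0.31 on the log2 scale. For SIRT4 and BRD2 the intervals were wider.

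**Figure D5:**
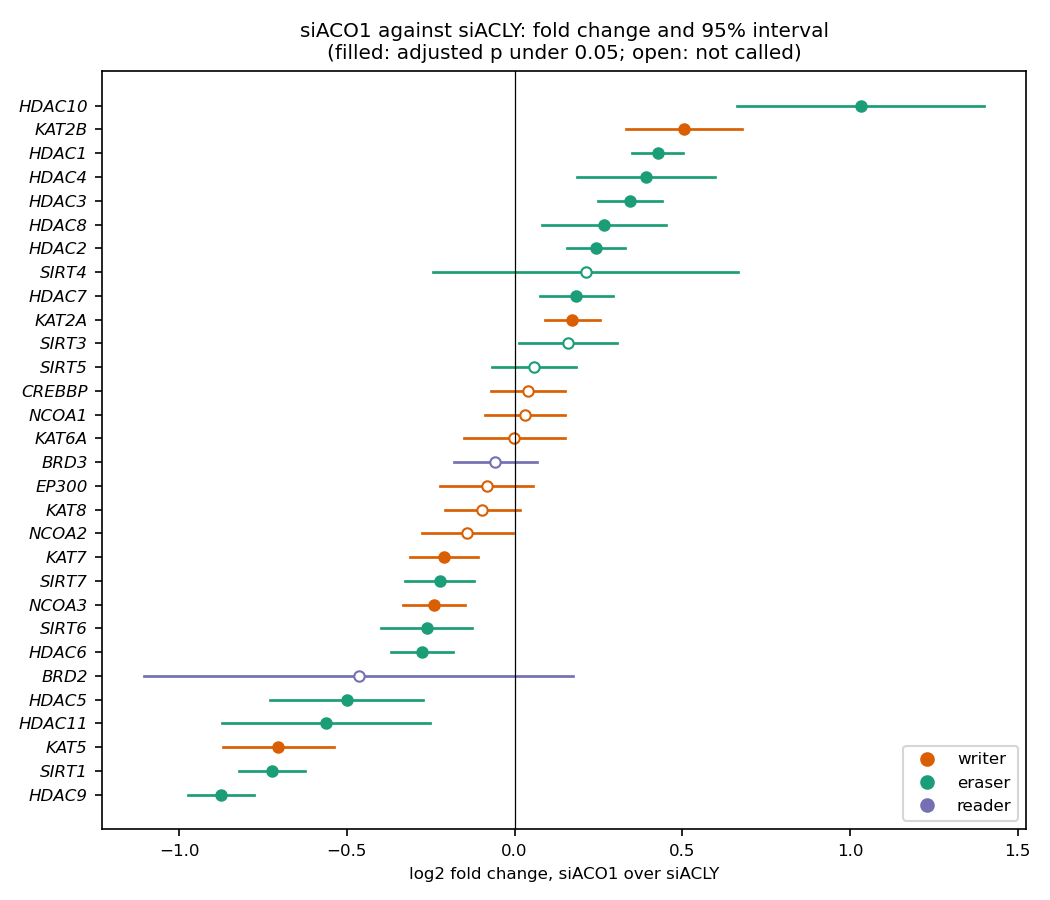
Log2 fold change of siACO1 over siACLY (x axis) for the 30 tested members, ordered by value, with the 95% interval of the edgeR fit as a line, colour for the role and filled points for an adjusted p under 0.05. HDAC10, KAT2B and HDAC1 lead at the higher end, and HDAC9, SIRT1 and KAT5 at the lower end.

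These enzymes work in complexes, and 129 other genes for their subunits, for further acetyltransferases and for further acetyl-lysine readers were listed alongside, of which 123 were tested. In siSLC25A1, 20 of the 123 were called (16.3%, 10 higher and 10 lower), in siACLY 49 (39.8%, 12 higher and 37 lower) and in siACO1 51 (41.5%, 19 higher and 32 lower). The share called in each was near that of all genes, while the split in siACLY leaned to lower values. Their median log2 fold change was -0.01, -0.06 and -0.02.

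In siACLY, 6 of 12 tested NuRD subunits, 5 of 13 SIN3 subunits, 3 of 6 CoREST subunits and 4 of 8 MOZ/MORF and HBO1 subunits were called, all of them lower, beside 36.7% of all genes called and 18.3% called lower. Calls went both ways among SAGA and ATAC subunits (3 higher, 4 lower of 20) and NuA4/TIP60 subunits (4 higher, 1 lower of 14). They also did among MSL and NSL subunits (1 higher, 2 lower of 9) and MiDAC deacetylase subunits (1 higher, 1 lower of 3). The other acetyl-lysine readers had 3 higher and 8 lower of 27. Of 5 NCoR/SMRT subunits 2 were called, and of 6 other acetyltransferases 1, all of them lower. Differences between these sets were not tested. In the annotation, other entries overlap 73.8% of the exon bases of ATXN7, 53.5% of CHD4, 42.4% of BRD7 and 40.5% of VPS72. Their values carry the uncertainty of counting given for KAT5. GATAD2B of NuRD was low, with 1.41 CPM in siControl. NuRD, SIN3, CoREST, MOZ/MORF and HBO1 are complexes of HDAC1 and HDAC2 and of the KAT6 and KAT7 acetyltransferases. CHD3, a chromatin remodelling ATPase of NuRD, averaged 52.9 CPM in siControl, 64.1 in siSLC25A1, 29.6 in siACLY and 36.4 in siACO1. In that order of knockdowns, its log2 fold change was 0.28, -0.84 and -0.54, with adjusted p of 0.0142, 6.855e-08 and 1.687e-05. JADE2, a scaffold of the HBO1 complex, fell from 174.9 to 112.3 CPM in siACLY (log2 fold change -0.64, adjusted p = 1.047e-12).

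Among the NuA4/TIP60 subunits called higher in siACLY were ING3 (12.5 to 18.6 CPM, log2 fold change 0.58, adjusted p = 1.141e-06) and EPC2 (26.2 to 36.9 CPM, 0.49, adjusted p = 1.903e-07). The reader DPF1, a subunit of neuronal BAF complexes, was also higher in siACLY (log2 fold change 0.53, adjusted p = 7.015e-04), at 7.16 CPM. In siSLC25A1 the largest rise among the called genes was that of DNTTIP1, a subunit of the mitotic deacetylase complex MiDAC, with 106.0 CPM in siControl and 149.4 CPM in siSLC25A1 (log2 fold change 0.49, adjusted p = 9.268e-06). Of the called genes with at least 5 CPM, the bromodomain gene BAZ2B followed CHD3 with 0.24 (adjusted p = 0.0194). Among called genes with at least 5 CPM, the largest falls in siSLC25A1 were those of MORF4L1, a chromodomain subunit of NuA4 (-0.39, adjusted p = 8.699e-08), TAF1, a TFIID subunit with bromodomains (-0.28, adjusted p = 0.00435), and SUDS3 of the SIN3 complex (-0.23, adjusted p = 0.00355).

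In siACO1 the largest rise among the called genes of this list was that of SMARCA2, the BRM ATPase of SWI/SNF complexes, which stood at 9.79 CPM in siControl and 19.3 CPM in siACO1 (log2 fold change 0.98, adjusted p = 1.540e-09). In siSLC25A1 and siACLY, SMARCA2 had log2 fold changes of -0.15 and -0.17 that did not pass the test. ING4, a plant homeodomain subunit of the HBO1 complex, came next among the called genes, with 16.8 CPM in siControl and 25.7 CPM in siACO1 (0.61, adjusted p = 1.278e-06), and the bromodomain gene BRWD3 with 36.6 and 47.0 CPM (0.36, adjusted p = 1.394e-04). TAF1 was lower there too (-0.43, adjusted p = 2.556e-05), beside CHD3.

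Cell type markers moved with the knockdowns too. In siACO1 the keratins KRT8, KRT18 and KRT19 averaged 1280, 774 and 52.0 CPM, beside 2278, 1325 and 88.5 in siControl, and the collagen gene COL1A2 1576 CPM beside 885. The mesenchymal factor ZEB1 averaged 63.9 CPM in siControl, 100.3 in siSLC25A1 and 96.8 in siACLY, and KRT19 averaged 120.9 and 141.1 CPM in siSLC25A1 and siACLY. The other fibroblast markers, COL1A1 and DCN, had 52 and 5 counts in the 12 libraries. The part of these marker shifts in the values of the acetylation genes was not tested. Not every value of the marker list is given. Among those left out are KRT8, KRT18 and VIM in siSLC25A1 and siACLY, VIM and ZEB1 in siACO1, and CDH2, PECAM1 and CDH5.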

How the data were processed

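The authors deposited 1 table of unnormalized read counts per gene for the 12 libraries (whole numbers, with each library in a column, per the file headers). The submitters' processing notes name CASAVA, FastQC, Trim Galore, STAR 2.7.0e and DESeq2 and the builds GRCh38 and GRCm39, without roles; the counting tool, annotation and strand setting are not given in the sources used here. Symbols were matched by Ensembl identifier, and positions are from GENCODE on GRCh38.

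Counts were filtered with filterByExpr (16197 genes kept) and scaled by TMM. All 12 libraries entered 1 robust quasi-likelihood fit of the 4 groups (edgeR 4.0.16 in R 4.3.3), with 8 residual degrees of freedom and a common biological coefficient of variation of 4.89%. Tests were two-sided, with Benjamini-Hochberg adjustment over all genes tested, and the threshold was an adjusted p of 0.05. Every adjusted p is from this fit unless DESeq2 (version 1.42.0) is named. The script was tested on simulated data. Alternatives were library totals without scaling factors, DESeq2, other filters, a fit of only the groups compared, a replicate block and leaving out each library.

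The members and lists were chosen with earlier results of these data known. All members are named. Of each knockdown's calls, the 6 largest whose higher group averaged 1 CPM or more are given in every library (others were added after their values were seen), and of the other genes the 3 largest rises and 3 largest falls at 5 CPM or more. A gene that this rule names is not reported here. MAPK12, RNASEH2C and the neighbours of the members near 0 were chosen after values were seen.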

Additional observations from a re-analysis of the deposited data

How the results depend on the processing

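Each member's log2 fold change in 6 comparisons was recomputed under 19 alternative settings. No called value changed its sign. The recomputation gave 3420 values, each for 1 member, 1 comparison and 1 setting, and 1501 of them belonged to a call of the main fit. Of these 1501, 64 were no longer past the threshold. Among the other values, 43 passed it and 118 changed sign while staying uncalled. The number of members called in siSLC25A1 against siControl was 7 and ran from 3 to 8 when 1 library was left out: it was 3 without siControl replicate 3, 4 without siSLC25A1 replicate 1 and 3 without siSLC25A1 replicate 3, with fewer libraries in the fit. In siACLY the count ran from 13 to 17 around 15 and in siACO1 from 12 to 15 around 14 when 1 library was left out. With the replicate number as a replicate block, the counts against siControl were 7, 15 and 14. Same-numbered libraries of different groups had correlations of their deviations from the group means of -0.034 to 0.067 (18 pairs), beside -0.072 to 0.071 for other pairs. These deviations cover all genes tested and include counting noise. They therefore cannot settle whether same-numbered libraries shared a culture or day, which the labels do not say. Low counts limit HDAC10, SIRT4 and BRD2, whose intervals are wide. HAT1, KAT6B and SIRT2 did not pass the filter, and the cause of their low counts was not tested.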
